A study of Macaca mulatta with 24 samples.

Results

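HBB and HBA, the genes of the beta and the alpha chain of adult hemoglobin, were followed in the ileum of rhesus macaques after total-body irradiation (TBI). They are 2 of the 16226 genes with a symbol on the array. Both were selected on their measured signal, because it was much lower in irradiated ileum than in unirradiated ileum, most of all on day 7 after 7.4 Gy, so the differences from the controls are given below as a description and carry no test. HBB was measured by 2 probes. The symbol HBA does not stand in the authors' table, which names 2 probes HBA2. By its RefSeq accession the first of these belongs to HBA (gene 693930, with HBA2 as an older symbol) and is the HBA probe of this report, and the other belongs to the neighbouring gene HBA1 (gene 701930) and is given with the other globin genes.

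Total RNA from a short piece of whole ileum was measured on Agilent macaque arrays with a single dye, 1 array for each of 24 animals. Young adult males were left unirradiated (0 Gy, 4 animals labelled day 4, which served as controls for every day) or received 6.7 Gy or 7.4 Gy of TBI from a cobalt-60 gamma source. At each dose 4 animals were sampled on day 4, a further 4 on day 7 and 2 on day 12. For day 12 the protocol text of the labels names another day than the titles and the day field, and the latter were used here. Nothing in the groups differs by genotype, and whole ileum holds epithelium, muscle, lymphoid tissue and blood in vessels together. A signal below is a log2 value, on which 0 is the 75th percentile of the array (837 to 1330 intensity units), and a difference of 1 is a 2-fold change. No probe was saturated, and 72.7% to 88.1% of the probes of an array were well above background, the scanner software's own call. The ileal epithelium markers FABP6, which binds bile acids in ileal cells, and SLC10A2, the ileal bile acid transporter, had mean signals of 8.64 and 3.20 over the 24 arrays.

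Hemoglobin carries oxygen in red cells and is built from chains of the alpha family and chains of the beta family, each holding a heme group. The genes of each family lie in a cluster: in the macaque assembly T2T-MMU8v2.0, HBZ, HBM, HBA, HBA1 and HBQ1 lie in this order in one cluster and HBE1, HBG2 and HBB in the other, with further genes between some of them. HBE1 and HBZ are embryonic and the gamma chain genes fetal, HBA is used from fetal life on, and HBB is the main beta-type gene after birth. Globin mRNA is made by erythroid precursors in the bone marrow and is still carried by the youngest red cells in the circulation (reticulocytes), so that the globin mRNA of a gut sample normally comes with its blood. In a bulk sample such as whole ileum, fewer cells of a type and less RNA per cell cannot be told apart.

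HBB was lower in every irradiated animal than in any unirradiated one. The brighter HBB probe had signals of 0.80, 1.38, 2.51 and 2.76 in the 4 controls. On day 4 it stood at -4.44, -3.03, -4.90 and -4.61 after 6.7 Gy, and at -2.24, -4.45, -4.66 and -4.71 after 7.4 Gy. On day 7 it stood at -6.03, -4.57, -4.36 and -5.01 after 6.7 Gy, and at -5.19, -5.97, -5.63 and -6.01 after 7.4 Gy. The lowest signals of the series were thus on day 7, and replicate 1 of day 4 after 7.4 Gy lay apart from the other 3 animals of its group. On day 12 the signals were -2.50 and -3.02 after 6.7 Gy, and -2.58 and 0.20 after 7.4 Gy. No irradiated animal reached a control: the highest of the 20 (0.20) was 0.61 below the lowest control. The probe was well above background on all 24 arrays.

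As means, HBB went from 1.86 ± 0.93 (SD, n = 4) in the controls to -4.25 ± 0.83 (SD, n = 4) on day 4 after 6.7 Gy and to -4.01 ± 1.19 (SD, n = 4) on day 4 after 7.4 Gy. The mean was -4.99 ± 0.74 (SD, n = 4) on day 7 after 6.7 Gy and -5.70 ± 0.38 (SD, n = 4) on day 7 after 7.4 Gy. It was -2.76 ± 0.37 (SD, n = 2) on day 12 after 6.7 Gy and -1.19 ± 1.97 (SD, n = 2) on day 12 after 7.4 Gy. Against the controls these are log2 differences of -6.11 and -5.88 on day 4 (standard error of each 0.62), -6.86 and -7.57 on day 7 (0.62) and -4.63 and -3.06 on day 12 (0.76), the lower dose first. As folds, HBB was 69.1-fold and 58.8-fold lower on day 4, 116-fold and 189-fold lower on day 7, and 24.7-fold and 8.32-fold lower on day 12. With normexp background correction, which lifts dim signals, the same differences were smaller, -5.05 and -4.97 on day 4, -5.33 and -5.56 on day 7. The value of day 12 after 7.4 Gy rested on 1 of its 2 animals: it was -1.67 without replicate 1 and -4.45 without replicate 2. The difference of day 4 after 7.4 Gy was -6.47 without its replicate 1.

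The dimmer HBB probe was lower in every irradiated animal too. It cleared background throughout the controls only, and so entered the tested probes through the group where it was high. Its values are thus a description and do not back those of the brighter probe. It read -2.02, -1.41, -0.40 and -0.11 in the controls, in the same order of animals as the brighter probe. On day 7 it was not well above background in any of the 4 animals of either dose, so that only a lower limit can be given there: HBB by this probe was at least 45.0-fold lower after 6.7 Gy and at least 46.7-fold lower after 7.4 Gy. For these limits each dim signal was raised to that of the dimmest detected probe of the same array. On day 4 the probe was above background in 1 of 4 animals at each dose, and these were the same animals in which the brighter probe was highest in its group. On day 12 it was above background in 1 of 2 animals at each dose, at -5.81 after 6.7 Gy and at -2.69 after 7.4 Gy. The correlation of the 2 HBB probes was 0.985 over the 24 arrays and 0.949 over the 20 irradiated ones. The value over 24 arrays spans the contrast on which HBB was selected. Both probes share the array's scale, and the dimmer one was well above background on only 8 of 24 arrays. These values are therefore a description.

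HBA was also lower in all irradiated animals, by a smaller factor. Its signals were 0.37, 0.75, 2.07 and 2.37 in the controls, so that the animals stood in the same order as by HBB. On day 4 they were -1.99, -1.50, -2.18 and -1.95 after 6.7 Gy, and -1.50, -1.80, -2.00 and -2.41 after 7.4 Gy. On day 7 they were -2.11, -1.66, -1.80 and -2.00 after 6.7 Gy, and -2.00, -2.25, -1.94 and -1.98 after 7.4 Gy. The 16 animals of days 4 and 7 thus lay within 1 narrow band, whatever the dose. On day 12 the signals were -0.89 and -1.07 after 6.7 Gy, and -0.90 and 0.11 after 7.4 Gy, all above that band and below the lowest control. HBA was well above background on all 24 arrays.

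The HBA mean was 1.39 ± 0.98 (SD, n = 4) in the controls. On day 4 it was -1.91 ± 0.29 (SD, n = 4) and -1.93 ± 0.38 (SD, n = 4), on day 7 -1.90 ± 0.20 (SD, n = 4) and -2.04 ± 0.14 (SD, n = 4), and on day 12 -0.98 ± 0.13 (SD, n = 2) and -0.39 ± 0.71 (SD, n = 2), the lower dose first. The log2 differences from the controls were -3.30 and -3.32 on day 4 and -3.29 and -3.43 on day 7 (standard error of each 0.34), and -2.37 and -1.78 on day 12 (0.41). HBA was thus 9.83-fold and 9.99-fold lower on day 4, 9.76-fold and 10.8-fold lower on day 7, and 5.17-fold and 3.44-fold lower on day 12. In this description the values of 6.7 Gy and of 7.4 Gy share their controls. The 4 controls themselves spanned a 4.02-fold range by HBA and a 3.89-fold range by HBB, and the HBA difference of day 4 after 6.7 Gy was -3.64 without control replicate 1 and -2.97 without control replicate 4.

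**Figure D1:**
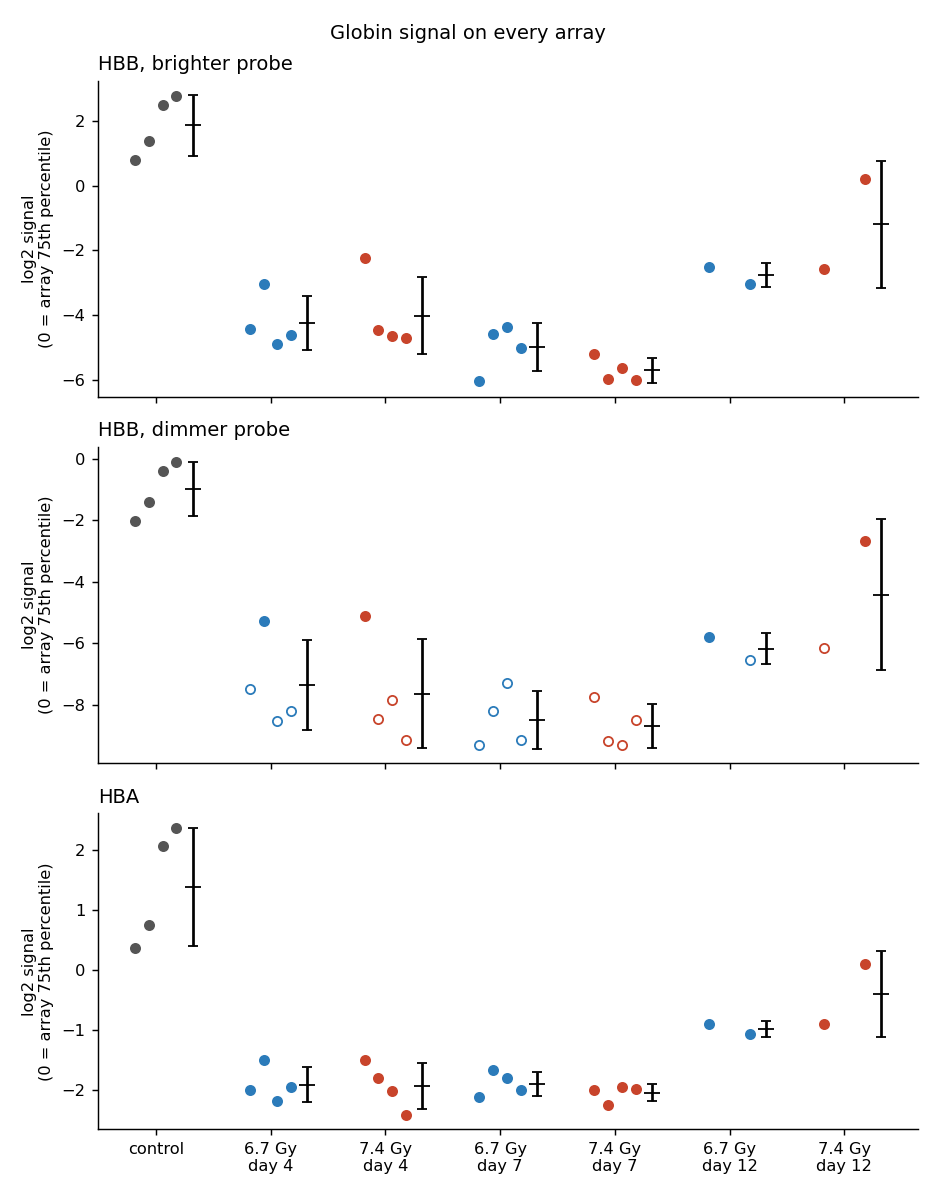
Log2 signal (0 = 75th percentile of the array) of the 2 HBB probes and the HBA probe on each of the 24 arrays, by group (grey, controls; blue, 6.7 Gy; red, 7.4 Gy). Filled points are well above background, open points are not, and the bars give the mean ± SD of the group. The 4 controls lie above all 20 irradiated animals in each panel, and the day 12 animals lie above most animals of days 4 and 7.

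Among all 36108 tested probes (those that cleared background throughout 1 or more groups), a probe counts as called where limma with Benjamini-Hochberg adjustment gives a p below 0.05 and the change is 2-fold or more. Against the controls, 0.978% of tested probes were called in either direction on day 4 after 6.7 Gy, 0.235% on day 7 and 0.108% on day 12. After 7.4 Gy these shares were 2.33% on day 4, 0.568% on day 7 and 0.0443% on day 12. HBB ranked between 2 and 3 from the lowest difference in 5 of the 6 comparisons, and 23 on day 12 after 7.4 Gy. HBA ranked between 5 and 11 on days 4 and 7, and 36 and 125 on day 12. Since these contrasts chose the genes, the ranks say only where the genes stood.

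Array layout goes with the groups, and its part in these differences was not tested for days 7 and 12. All 4 controls were in position 1 of their slide, and no array of days 7 or 12 was. Of day 4 after 6.7 Gy, 2 animals were in position 1 too, and against the controls they differed by -5.60 for HBB and -3.14 for HBA. With array position as a covariate the differences of day 4 after 7.4 Gy were -4.86 for HBB and -3.00 for HBA. Within the 4 slides that hold a control, each irradiated animal was below the control of its own slide, with log2 differences between -7.78 and -4.75 for HBB and between -4.38 and -2.31 for HBA. The slides had been scanned on 2 days, and on the scan day that holds all controls the differences were between -4.63 and -7.69 for HBB and between -2.37 and -3.46 for HBA. That scan day holds no animal of day 12 after 7.4 Gy.

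The comparison of the doses asked whether globin signal was lower after 7.4 Gy than after 6.7 Gy. It was tested on days 4 and 12 only, since the signal was lowest on day 7 after 7.4 Gy when the genes were selected. The irradiated animals of the other days also entered that selection, so the tests between irradiated groups are not fully independent of it. On day 4 the log2 difference, 7.4 Gy minus 6.7 Gy, was 0.23 for HBB (95% interval -1.06 to 1.52, adjusted p = 0.95) and -0.02 for HBA (-0.72 to 0.68, adjusted p = 0.99), and limma called 0% of tested probes. The animals of the 2 doses overlapped for both genes. On day 12 the difference was 1.57 for HBB (-0.25 to 3.39, adjusted p = 0.81) and 0.59 for HBA (-0.40 to 1.58, adjusted p = 0.87), beside 0.00277% of probes called. Single animals set these values: without replicate 2 of day 12 after 7.4 Gy they were 0.18 and 0.08, without replicate 1 they were 2.96 and 1.09, and with slide as a block 2.46 and 1.24, none of which passed. The 95% intervals are wide, and with 2 animals a group a several-fold difference of HBB between the doses was not detectable. On day 7, where no test is given, the difference was -0.71 for HBB and -0.15 for HBA. The dose difference of day 12 was 1.34 above that of day 4 for HBB and 0.61 above it for HBA, and neither passed as an interaction term (adjusted p = 0.72 and 0.77 from limma).

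The comparison of the days asked whether the low globin signal stayed. After 7.4 Gy both genes were higher on day 12 than on day 4. The log2 difference was 2.82 for HBB (standard error 0.76, adjusted p = 0.045) and 1.54 for HBA (standard error 0.41, adjusted p = 0.045), and both were called, as were 1.8% of tested probes. For HBA both animals of day 12 lay above all 4 of day 4, a separation that was not counted over all probes. For HBB they did not, since replicate 1 of day 4 (-2.24) was above replicate 1 of day 12 (-2.58). Neither call held without replicate 2 of day 12, when the differences were 1.43 for HBB (adjusted p = 0.455) and 1.03 for HBA (adjusted p = 0.350). The HBA call was also lost without any other single animal of either group (differences of 1.38 to 2.04, adjusted p from 0.058 to 0.089), and the HBB call without replicate 2, 3 or 4 of day 4 (2.68, 2.61 and 2.59, adjusted p from 0.076 to 0.092). Both were lost with scan as a block (2.83 and 1.60), with the replicate block (2.78 and 1.63, adjusted p = 0.085 and 0.062) and with dim probes kept in the test, and the HBB call with the mean of its probes (3.02, adjusted p = 0.052). Over the alternatives tried the adjusted p ran from 0.0216 to 0.455 for HBB and from 0.0339 to 0.350 for HBA.

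After 6.7 Gy the same difference was smaller and did not pass. Day 12 minus day 4 was 1.49 for HBB (standard error 0.76, adjusted p = 0.21) and 0.93 for HBA (standard error 0.41, adjusted p = 0.15), with 2.59% of probes called. Both animals of day 12 lay above all 4 of day 4 for both genes, but the share of all probes that separated likewise was not counted. With slide as a block day 12 minus day 4 was 0.39 for HBB (adjusted p = 0.78) and 0.21 for HBA (adjusted p = 0.79). Day 12 minus day 7 was 2.23 for HBB (adjusted p = 0.29) and 0.92 for HBA (adjusted p = 0.41), with 0.036% of probes called. Again the groups did not overlap, and again no such share was counted. With normexp day 12 minus day 7 was 1.22 for HBB, and with slide as a block 0.53 for HBA. Day 7 minus day 4 was -0.75 for HBB (adjusted p = 0.51) and 0.01 for HBA (adjusted p = 0.99), with 0.354% of probes called. Whether the rise after 7.4 Gy was larger than that after 6.7 Gy is the interaction given above, which did not pass. With no test, day 7 minus day 4 after 7.4 Gy was -1.69 for HBB and -0.11 for HBA, and day 12 minus day 7 was 4.51 for HBB and 1.65 for HBA.

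In the order of their group means, both genes were highest in the controls, then on day 12 after 7.4 Gy, then on day 12 after 6.7 Gy. The controls did not overlap the next group for either gene. The day 12 groups overlapped each other for both. The lower of them, day 12 after 6.7 Gy, overlapped the next group for HBB and not for HBA. Below it the HBB means fell in the order of day 4 after 7.4 Gy, day 4 after 6.7 Gy, day 7 after 6.7 Gy and day 7 after 7.4 Gy, and each of these groups overlapped the next. The 4 HBA means of days 4 and 7 lay between -2.04 and -1.90, and each group overlapped the next.

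**Figure D2:**
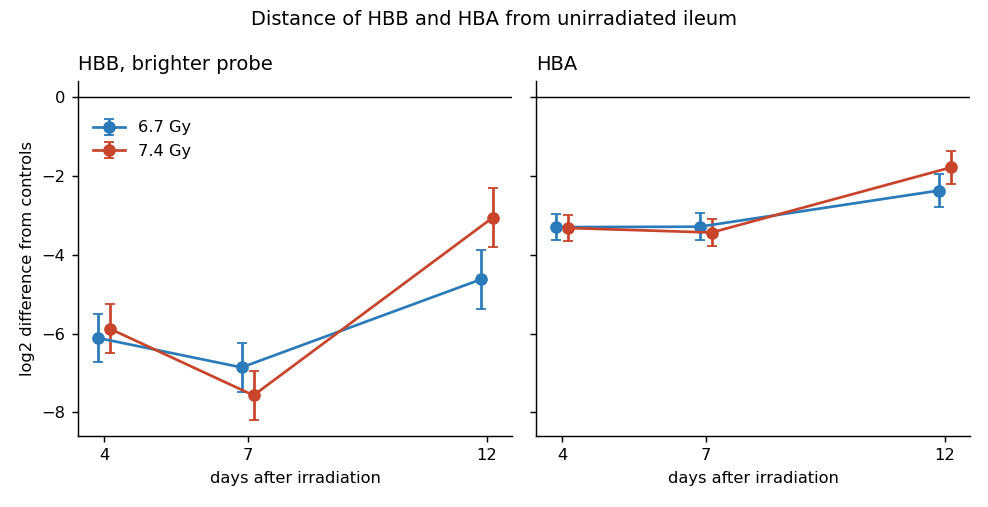
Log2 difference of HBB (brighter probe, left) and HBA (right) from the 4 controls, by day after irradiation, for 6.7 Gy (blue) and 7.4 Gy (red). Points are differences of group means and bars ± 1 standard error of the fit over 24 arrays. HBB lies lowest on day 7 (-6.86 and -7.57) and highest on day 12, and HBA is level between days 4 and 7 (-3.29 to -3.43).

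The signals of the 2 probes did not fall by the same factor. Within an array, the HBB signal minus the HBA signal was 0.47 ± 0.10 (SD, n = 4) in the controls, with all 4 between 0.39 and 0.63. It was -2.34 ± 0.55 (SD, n = 4) and -2.09 ± 0.91 (SD, n = 4) on day 4, and -3.10 ± 0.58 (SD, n = 4) and -3.66 ± 0.35 (SD, n = 4) on day 7, the lower dose first. On day 12 it was -1.78 ± 0.24 (SD, n = 2) after 6.7 Gy and -0.80 ± 1.25 (SD, n = 2) after 7.4 Gy. The signals of different probes have no common scale, and how much signal each probe gives without its target was not tested, so these values show neither which chain was more abundant nor how far the 2 transcripts changed unequally.

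Within groups the animals with more HBB had more HBA. Of the deviations from the group means over the 24 animals, Pearson's r was 0.80 (permutation test within groups, 100000 resamples, two-sided, p = 1e-05, the smallest that this number of resamples can give) and Spearman's rho was 0.85 (p = 0.0002). Without the 2 animals farthest from the median HBB deviation, replicate 1 of day 4 and replicate 2 of day 12 after 7.4 Gy, r was 0.80 (p = 2e-05) and rho 0.83 (p = 8e-05). Over the 20 irradiated animals r was 0.89 (permutation p = 0.00021) and rho 0.80 (p = 0.00139). These 6 p-values are 1 family, and after Benjamini-Hochberg adjustment the largest was 0.00139. With deviations centred on the slide as well, r was 0.71, and with normexp background correction it was 0.88. The relation between the 2 genes thus did not rest on the difference between irradiated and unirradiated animals, and both signals share the scale of their array.

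**Figure D3:**
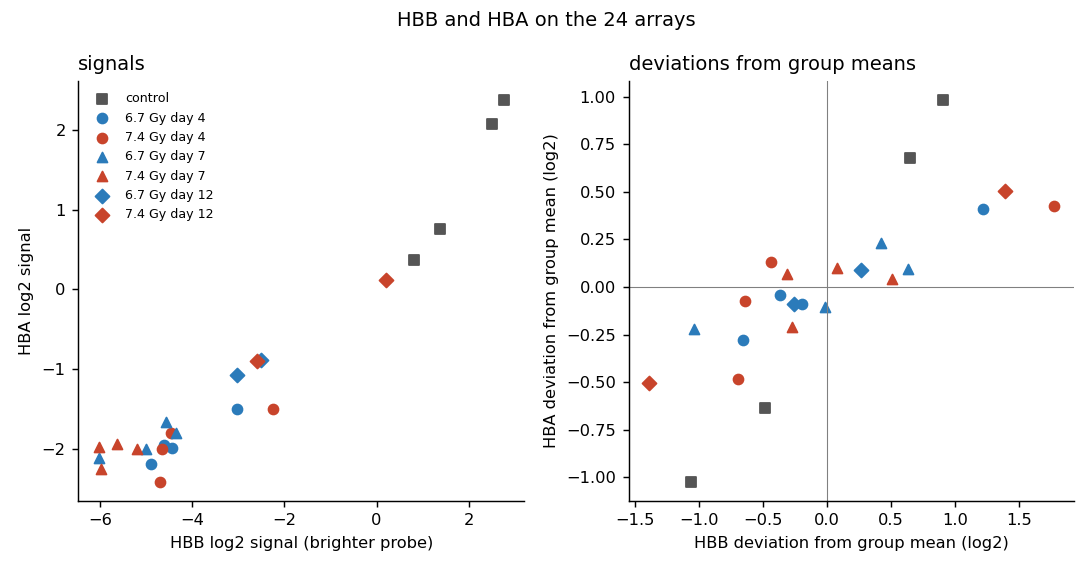
HBA against HBB (brighter probe) on the 24 arrays, as log2 signals (left) and as deviations from the group means (right), with 1 point for each animal, squares for controls, circles for day 4, triangles for day 7 and diamonds for day 12, in blue for 6.7 Gy and in red for 7.4 Gy. On the left the points of days 4 and 7 spread along HBB while HBA stays between -2.41 and -1.50, and on the right the deviations rise together (r = 0.80).

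Of 9 other globin genes listed, 5 had a tested probe, and by the brightest probe of each gene limma called 0 of 5 in every comparison with the controls (0 as well where p is left unadjusted, and 0 when limma models an intensity trend robustly). Over all tested probes the share called was 0.0443% to 2.33%, and 0 of 5 is near that background. HBA1, which codes for the same kind of alpha chain as HBA and is a near copy of it, was measured by 1 of the brightest probes of the array, at rank 253 of 43603, with intensities of 107230 to 163344. Its signal was 7.06 ± 0.18 (SD, n = 4) in the controls, and its differences from them lay between -0.30 (day 4 after 6.7 Gy, adjusted p = 0.13) and 0.07 (day 12 after 7.4 Gy, adjusted p = 0.96). Over the 24 arrays the HBA1 signal stayed between 6.64 and 7.29. Whether the probes for HBA and HBA1 tell these near copies apart was not tested, and an alpha chain level for the gene pair cannot be given from them.

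HBG2, a gamma chain gene of fetal life, had 3 tested probes, and their values differed. By its brightest probe the difference from the controls ran from -0.53 (day 7 after 7.4 Gy, adjusted p = 0.096) to 0.51 (day 12 after 6.7 Gy, adjusted p = 0.37), and on day 4 after 7.4 Gy it was -0.48 (adjusted p = 0.049), under 2-fold. By the probe of middle brightness it was below 0 in all 6 groups, from -1.26 (day 4 after 6.7 Gy, adjusted p = 0.055) to -0.09 (day 12 after 6.7 Gy, adjusted p = 0.97), and none was called. Its dimmest tested probe was well above background on all 4 controls and all 4 arrays of day 12, but on only 2 and 3 of 4 arrays on day 4 and on 2 and 1 of 4 on day 7, the lower dose first. It thus entered the fit through the groups where it was high, and its values are a description. Its difference from the controls was -2.06 and -1.78 on day 4, -1.96 and -2.25 on day 7, and -0.21 and -0.61 on day 12.

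HBE1, the embryonic beta-type chain, differed from the controls by -0.28 to 0.38. HBM, an alpha-type globin of erythroid cells, differed by -0.52 to 0.16, and HBQ1, another alpha-type globin, by -0.04 to 0.40. None of these passed. The globins of other tissues, NGB of neurons, CYGB of many cell types and MB of muscle, were tested as well, and 0 of 3 was called in any group, which is near the same background, with differences between -0.43 and 0.87.

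Genes of red cells and their precursors were described from a list of 30, of which 17 could be tested. Limma called 0 of 17 in every comparison with the controls, where it called 0.0443% to 2.33% of all tested probes, so that 0 of 17 is near the background. Of their values, 6 of 102 passed without adjustment of p, TMOD1 (which caps actin filaments) was called without control replicate 2 or without replicate 2 of day 4 after 6.7 Gy, and 0 genes were called when limma models an intensity trend robustly. After 6.7 Gy the median difference of the list was -0.21 (day 4), -0.19 (day 7) and 0.16 (day 12), beside -0.10, 0.00 and 0.06 over all tested probes. After 7.4 Gy it was -0.13, -0.24 and -0.08, beside -0.07, -0.03 and -0.01. The summed level of the 17 genes, in units of the array's 75th percentile, was 2.57 to 3.31 in the controls and 1.94 to 3.59 in irradiated ileum, and the lowest group, day 7 after 7.4 Gy (1.94 to 2.76), overlapped the controls.

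The brightest of the 17 were GYPC, a glycophorin of the red cell membrane that other cells also make, AHSP, which stabilises free alpha chains, and ANK1, the ankyrin of the red cell membrane skeleton. GYPC differed from the controls by between -0.19 and 0.39 (adjusted p at least 0.098), and AHSP by between -0.24 and 0.06 (adjusted p at least 0.32). ANK1 had the lowest adjusted p of the list on day 4 after 6.7 Gy, at a difference of -1.58 (adjusted p = 0.072), and its differences on day 7 were -1.16 (adjusted p = 0.42) and -1.28 (adjusted p = 0.24). On days 4 and 7 the ANK1 signals lay between -4.24 and -1.41, while the controls had -1.32, 0.18, -1.09 and -1.17, so that the groups did not overlap. The share of all probes that separated likewise was not counted. On day 12 the ANK1 signals overlapped those of the controls. ANK1 has 3 further tested probes, of which 1 was called on day 4 after 6.7 Gy (-1.19, adjusted p = 0.038).

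A further 4 red cell genes of the list were too dim to be tested. ALAS2, the erythroid enzyme that starts heme synthesis, was well above background on 2 of 24 arrays, both of them controls: replicate 3 at -5.46 and replicate 4 at -4.85, which are also the 2 animals with the highest HBB and HBA. CA1, the red cell carbonic anhydrase, was above background on 0 arrays. HEMGN, an erythroid nuclear protein, was above background on 0 arrays by 1 probe and on 1 by the other, and SPTB, the beta spectrin of the membrane skeleton, on 11, of which 2 were controls.

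Heme synthesis is run by every cell and at the highest rate by erythroid cells. Of 12 listed genes 10 were tested, and limma called 0 of 10 in every group (0 also without adjustment of p), which is near the 0.0443% to 2.33% of all tested probes, although FECH, which puts iron into heme, was called without control replicate 4 or replicate 3 of day 4 after 6.7 Gy. Among the brightest were UROD, an enzyme of the middle of the pathway, and ALAS1, the first enzyme of the pathway outside erythroid cells. UROD differed from the controls by -0.17 to 0.22, which did not pass. ALAS1 was lower by 0.56 on day 4 after 7.4 Gy (adjusted p = 0.022) and by 0.86 on day 12 after 6.7 Gy (adjusted p = 0.045), under a 2-fold change. Also under 2-fold, and named after their values were seen, were FECH at 0.90 on day 4 after 6.7 Gy (adjusted p = 0.0499), and on day 4 after 7.4 Gy SLC25A37, which carries iron into mitochondria, at -0.86 (adjusted p = 0.039) and UROS, an enzyme of the pathway, at 0.60 (adjusted p = 0.048). The median of the list lay between -0.16 and 0.15 over the 6 groups.

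Of 19 genes that clear hemoglobin and heme or handle iron, 17 were tested and limma called 0 of 17 in every group, beside the same 0.0443% to 2.33% of all tested probes, while 2 of 102 values passed without adjustment of p, both of CYBRD1, the iron reductase of the gut brush border (-1.12 and -1.13 on day 4), which was called without replicate 4 of day 4 after 6.7 Gy. The brightest were FTH1 and FTL, the chains of ferritin, which stores iron, and NCOA4, which sends ferritin to be broken down. FTH1 was lower by 0.63 on day 4 after 7.4 Gy (adjusted p = 0.029) and by 0.51 after 6.7 Gy (adjusted p = 0.091). BLVRA, which turns biliverdin into bilirubin, was higher by 0.77 on day 4 after 7.4 Gy (adjusted p = 0.0064), also under 2-fold. FTL differed by -0.45 to 0.17 and NCOA4 by -0.16 to 0.14, none of which passed. The median of the list lay between -0.14 and 0.14.

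**Figure D4:**
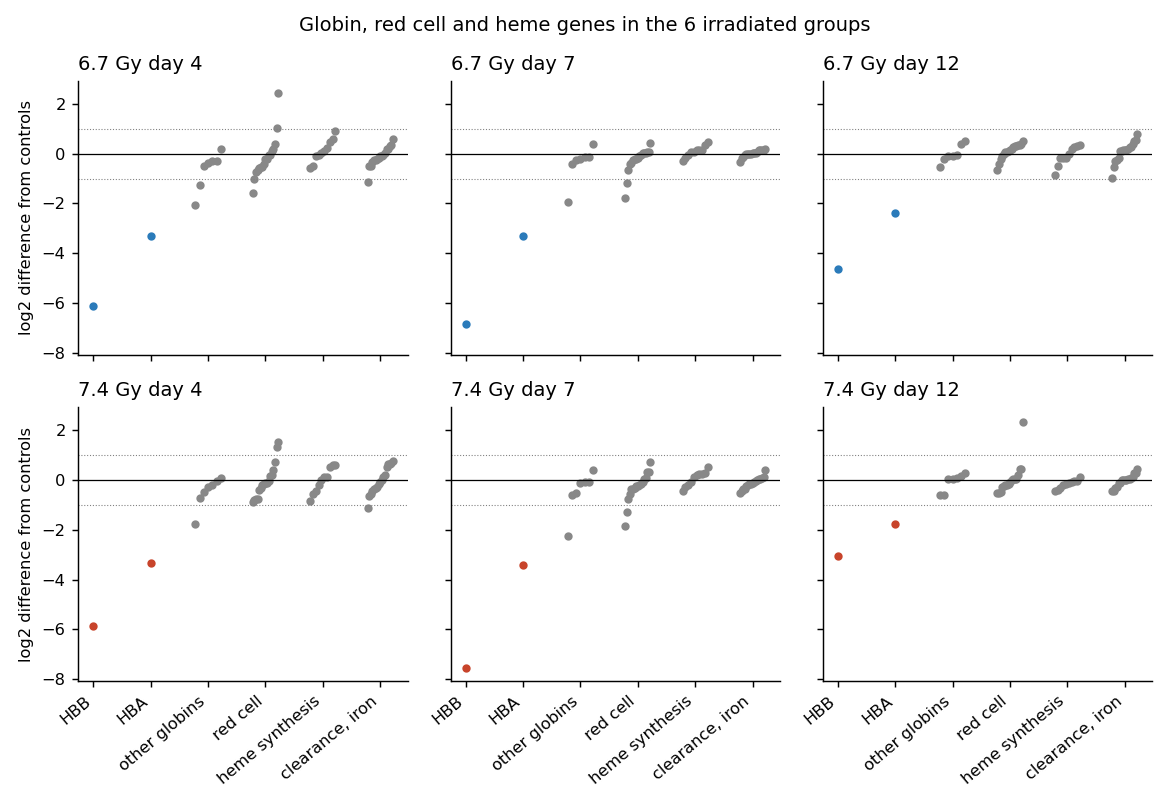
Log2 difference from the controls of HBB (brighter probe), HBA, the tested probes of the other globin genes, and the tested genes of the red cell (17), heme synthesis (10) and clearance and iron (17) lists, in the 6 irradiated groups. Each point is a gene or, for globins, a probe, and the dotted lines mark a 2-fold change. HBB and HBA lie below the points of the lists, which are spread around 0. The highest red cell point on day 4 after 6.7 Gy and on day 12 after 7.4 Gy is IFIT1B (2.42 and 2.33, neither of which passed).

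Markers of other cells of blood and gut are given beside the globin genes as measured facts, and their part in the globin values was not tested. Of 7 tested platelet genes and 6 tested neutrophil genes limma called 0 in every group, which for lists of this size is near the share of all probes called. A further 4 platelet genes were too dim to be tested: CLEC1B was well above background on 0 arrays, PPBP on 0 by 1 probe and 2 by the other, TUBB1 on 1, and PF4 on 15, of which 3 were controls. The summed level of the tested platelet genes was 3.09 to 4.20 in the controls and 3.12 to 5.36 in irradiated ileum, and day 4 after 7.4 Gy (4.32 to 5.36) lay above the controls while other groups overlapped them. Such a sum leans on its brightest gene, here GNG11, and how often such sums separate was not counted. GNG11 was higher on day 4 after 7.4 Gy by 0.70 (adjusted p = 0.038), under 2-fold. The summed level of the neutrophil genes was 0.817 to 1.18 in the controls and 0.694 to 7.66 in irradiated ileum, where 1 animal of day 4 after 6.7 Gy set the upper end and the next highest animal stood at 1.55. The brightest of these were GNG11, GP9 and SELP for platelets, and S100A9, CSF3R and FPR1 for neutrophils.

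Of 7 tested B cell genes, 2 were called lower in at least 1 irradiated group, a count for which no share over any group was taken from all probes. Called or not, all 7 stood lower on days 4 and 7 after 7.4 Gy, and 5 or 6 of 7 did in the other groups. The share of all tested probes called was 0.978% on day 4 after 6.7 Gy, 2.33% on day 4 after 7.4 Gy and 0.568% on day 7 after 7.4 Gy. CD79A and CD79B, the signalling chains of the B cell receptor, were called on day 4 after 6.7 Gy (-1.80, adjusted p = 0.047, and -1.29, adjusted p = 0.025) and on day 7 after 7.4 Gy (-2.37, adjusted p = 0.015, and -1.34, adjusted p = 0.026), and CD79B also on day 4 after 7.4 Gy (-1.25, adjusted p = 0.016). By its dimmer tested probe CD79B was called in the same groups, at -1.78 on day 4 after 6.7 Gy, and at -1.89 on day 4 and -2.41 on day 7 after 7.4 Gy. The median of the 7 tested B cell genes was between -1.34 and -0.59 over the 6 groups. Their summed level was 1.70 to 4.84 in the controls and 1.01 to 2.86 in irradiated ileum, and the 2 groups of 7.4 Gy on days 4 and 7 (1.01 to 1.49) lay below the controls while other groups overlapped them. How often such sums separate was not counted here either. Without control replicate 4 neither CD79A nor CD79B was called, and with slide as a block or with normexp CD79A was not called.

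Of the other lists, CD14 (a monocyte and macrophage receptor, 1.14, adjusted p = 0.011), VCAN (a matrix proteoglycan used as a monocyte marker, 1.30, adjusted p = 0.0046, by its brightest probe) and VWF (von Willebrand factor of endothelium and platelets, 1.12, adjusted p = 0.041) were called higher on day 4 after 7.4 Gy. The other VCAN probes gave 1.23 (adjusted p = 0.011) and -0.30 (adjusted p = 0.58), and with the mean of its probes VCAN was not called. CSF1R, a receptor of monocytes and macrophages, was lower by 0.97 on day 7 after 6.7 Gy (adjusted p = 0.0086) and by 0.77 on day 7 after 7.4 Gy (adjusted p = 0.021), under 2-fold. The median of the 6 tested monocyte genes lay between -0.30 and 0.37 over the 6 groups. VIL1, the villin of the epithelial brush border, fell by 1.32 on day 4 after 6.7 Gy (adjusted p = 0.0011) and by 1.27 after 7.4 Gy (adjusted p = 0.00085). FABP2, a fatty acid binding protein of the same epithelium, differed by 0.79 to 2.98, none of which passed (smallest adjusted p = 0.17), and the median of the 8 tested epithelial genes lay between -0.32 and 0.31. CD79A, CD79B, CD14, VCAN, VWF and VIL1 were the 6 marker genes called in any group among 42 tested. The shares of 0.0443% to 2.33% of all tested probes are each for 1 group. The share of all probes called in any group was not counted, so the 6 of 42 have no matching background here. With array position as a covariate, which allows only day 4 to be compared with the controls, VIL1 was called and the other 5 were not. VWF was not called without control replicate 1 or 2 or replicate 3 or 4 of day 4 after 7.4 Gy, and neither VWF nor CD14 was without replicate 1 of day 4 after 7.4 Gy.

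Among tested probes with a symbol, those whose signal was most like HBB were ranked by Pearson's r with the brighter HBB probe over the 24 arrays. These values are a description, since the probes were picked for this likeness and all share the contrast between irradiated and unirradiated animals. HBA itself had an r of 0.964. The probe next to it carries the symbol SERPINA2 in the authors' table (LOC701220 in RefSeq, a serine protease inhibitor gene), with an r of 0.940 with HBB and of 0.987 with HBA. Its signal was 0.67 ± 0.87 (SD, n = 4) in the controls, between -2.17 and -1.78 on days 4 and 7, -1.44 ± 0.14 (SD, n = 2) on day 12 after 6.7 Gy and -1.03 ± 0.63 (SD, n = 2) on day 12 after 7.4 Gy. Over the 20 irradiated animals its r with HBB was 0.864.

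The 9 probes that followed were of TLR10, CD79B (its dimmer tested probe), MMP25, SP140, SLAMF7, BTLA, STAP1, GCSAM and ARHGDIB, with r from 0.818 (TLR10) to 0.769 (ARHGDIB). TLR10 is a toll-like receptor of B cells and BTLA an inhibitory receptor of lymphocytes. Over the 20 irradiated animals alone their r with HBB was between 0.429 and 0.568, so the gap to the SERPINA2 probe was wider there. No gene of the red cell, heme synthesis or clearance lists was among the 10.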

How the data were processed

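Ileum RNA of 24 animals in 7 groups was measured on 24 Agilent single-color arrays. The authors deposited scanner output of Agilent Feature Extraction 11.0.1.1, from which the background-corrected intensity of each spot was used, and a table of normalized log2 values, which served here for probe symbols and as an alternative. Spots of a probe were averaged, leaving out outlier spots where another remained, and control spots were left out. The log2 intensity minus the 75th percentile of the array was fitted with limma 3.58.1 in R 4.3.3, with 7 group means and Benjamini-Hochberg adjustment over 36108 of 43603 probes, those that cleared background throughout 1 or more groups. A call needed an adjusted p under 0.05 and a fold change of at least 2.

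Probes were named by accession through RefSeq (8317 probes), by LOC number (3548) or by the deposited symbol. A gene was given by its brightest tested probe. Correlations used scipy 1.17.1 with 100000 permutations within groups. The number of arrays limits the precision, and replicates are separate animals. The members and the gene lists were chosen with earlier results of these data known. Named genes were all globin probes, the genes of each list called against the controls or else its 3 brightest, and the 10 probes with a symbol most like HBB. Of these, 1 gene is not reported here. BLVRA, CSF1R, CYBRD1, FABP2, FABP6, FECH, IFIT1B, SLC10A2, SLC25A37, TMOD1, UROS and the genes too dim to be tested lie outside this rule and were named after their values were seen. The alternatives were quantile normalization, normexp (offset 50, on median signals), the deposited log2 values, slide, scan or replicate number as a block, array position, the mean of probes, no filter on dim probes, intensity trend with robust moderation, the methods' t-test and leaving out each array. Scan as a block, and all alternatives for the other globin and marker lists, were chosen after seeing the data. The fits and the correlation were tested on simulated data. A search of promoters for motifs was not run, since no promoter sequence was used here.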

Additional observations from a re-analysis of the deposited data

Results flagged for a closer look

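Of 55 sets of 4 arrays (1 globin probe in 1 group), 3 held 1 animal far from the other 3 by Dixon's criterion, which chance gives in about 1 of 20. The brighter HBB probe stood at -2.24 in replicate 1 of day 4 after 7.4 Gy, with a gap of 0.897 of the group's range. HBE1 stood at -1.12 in control replicate 4 (0.875). A dim HBG2 probe, not well above background there, stood at -9.02 in replicate 3 of day 7 after 7.4 Gy (0.954).

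After 7.4 Gy, day 12 and day 4 differed by the limma test for both genes, by 2.82 for HBB and 1.54 for HBA on the log2 scale, and both calls were lost without replicate 2 of day 12, when the differences were 1.43 and 1.03.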

How the results depend on the processing

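Of the values recomputed under other settings, 272 kept their side of the threshold or, with no test, stayed within 1 SD, 14 moved further, 7 lost a call and 5 tested differences changed sign; of those recomputed without 1 array, the numbers were 322, 11, 10 and 9. Values with no test are among the former kinds whatever their sign. The cause was not tested in any of these. With normexp, HBB differed from the controls by -5.05 on day 4 and -5.33 on day 7 after 6.7 Gy and by -5.56 on day 7 after 7.4 Gy, and after 7.4 Gy day 7 minus day 4 was -0.59 and day 12 minus day 7 was 2.70. With slide as a block, HBA day 7 minus day 4 was -0.32 after 6.7 Gy and 0.27 after 7.4 Gy, its dose difference on day 7 was 0.18, and the HBB dose difference on day 4 was -0.42. Deviations of same-numbered animals and controls correlated by -0.26 to 0.23. Animals of different numbers were not compared, so whether the replicate numbers pair the samples was not settled. With the replicate block, day 12 minus day 4 after 7.4 Gy was 2.78 for HBB and 1.63 for HBA, neither called, and 1 red cell gene (TMOD1) was called. With scan as a block these differences were 2.83 and 1.60, and without the filter on dim probes 2.82 and 1.54, none called, and with scan as a block HBA day 7 minus day 4 after 6.7 Gy was -0.057. With the mean of probes the HBB difference was 3.02, not called, its dose difference on day 4 was -0.022, and 1 other globin gene (HBG2, a mean that takes in its dim probe) was called. With array position, which could not be fitted for days 7 and 12 against the controls or day 4, the HBA dose difference on day 4 was 0.14 and 1 marker gene was called. The methods' t-test called 0 marker genes adjusted and, unadjusted, 13 markers, 1 red cell gene (ANK1) and 1 clearance gene (CYBRD1). Without 1 array, the dose difference on day 4 ran from -0.36 to 0.64 for HBB and from -0.16 to 0.14 for HBA, and HBA day 7 minus day 4 after 6.7 Gy from -0.082 to 0.15. After 7.4 Gy, day 12 minus day 4 ran from 1.43 to 4.21 for HBB and from 1.03 to 2.04 for HBA, day 12 minus day 7 from 3.12 to 5.90 and from 1.15 to 2.16, and HBB on day 12 minus controls from -4.45 to -1.67. Called genes ran from 0 to 1 for the red cell, heme synthesis and clearance lists and from 4 to 7 for the markers. HBA has 1 probe, so the mean of probes gave it no other value. Signals near background limit the dimmer HBB probe.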
